A study of Mus musculus with 12 samples.

Results

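The RNA counted here came from the plainest repeats of the mouse genome: tandem runs of a unit of 1 to 3 bases, such as _CA_n, and low-complexity tracts, which are stretches rich in 1 or 2 kinds of base without an exact unit. Members were all rows of the class Low_complexity, and all rows of the class Simple_repeat whose unit, the letters spelled out in the name, was 1 to 3 bases long. The rule gave 86 of 18538 repeat names: 4 low-complexity names, 4 with a 1-base unit, 15 with a 2-base unit and 63 with a 3-base unit. A further 1157 simple repeats had units of 4 or 5 bases and 15932 had longer ones.

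The 12 libraries held total RNA of C57BL/6 mouse embryos at the 2-cell stage, 1.5 days post fertilization, 6 libraries per genotype. The KO group, Kdm4a knockout (m-/p-), came from knockout oocytes and knockout sperm. The WT group, WT (m+/p-), came from wild-type oocytes and the same kind of sperm, so both groups lacked the paternal allele and differed in the maternal one. Kdm4a encodes a demethylase of histone H3. How many embryos or females stand behind a library is not given in the labels, so the p-values measure the spread between libraries, which may be partly technical. The rows are repeats only, and the level of Kdm4a was not available as a check of the genotypes.

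Tandem runs of short units arise when the DNA polymerase slips during replication, and in mammals they lie mostly in introns and between genes. They have no promoters of their own. RNA that contains them is usually part of a longer transcript: an intron, an untranslated region, or the tail of a retrotransposon, since LINE and SINE elements end in A-rich stretches. Units with a CpG step, such as CCG, are typical of the CpG islands at gene starts, and CAG and CTG units also occur within coding exons. In a bulk sample of this kind, more molecules and more of a longer host transcript cannot be told apart. A name pools all its tracts in the genome, so the level of 1 name cannot be set against another per length.

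Library totals ran from 7952526 counts in KO replicate 5 to 18902360 in WT replicate 4. Short-unit repeats and low-complexity tracts together made up 6.11% ± 0.463 of all counts in KO and 5.16% ± 0.268 in WT (SD, n = 6 each). KO replicate 5 was the shallowest library, and WT replicate 2 had the highest share of LTR retrotransposons of all, 59.6% of its counts, so results were also computed without these 2. Levels below are normalised CPM, counts scaled to a library of 1000000 after TMM adjustment, and log2 fold changes are KO over WT from edgeR's quasi-likelihood test over 3312 repeats of all classes, relative to a median log2 fold change of 0.01 over those repeats.

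**Figure D1:**
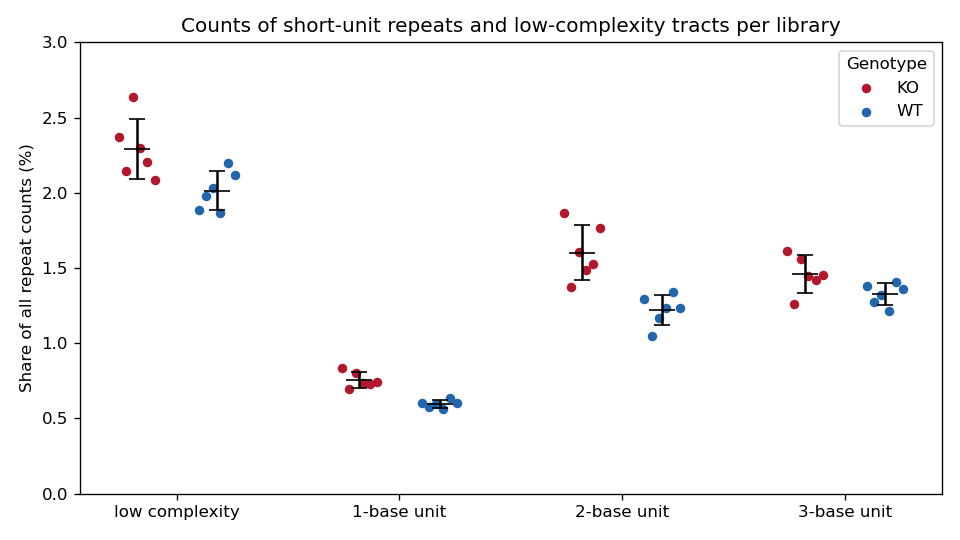
Share of all repeat counts (%, vertical axis) taken by each group of names in each library, KO beside WT. Points are libraries, and bars give the mean and SD of 6 libraries. The 2-base units took 1.60% ± 0.183 in KO and 1.22% ± 0.101 in WT, with no overlap.

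As shares of all counts, each of the 4 groups averaged higher in KO than in WT. Names with a 1-base unit took 0.757% ± 0.0527 of the counts in KO and 0.597% ± 0.0252 in WT, and those with a 2-base unit 1.60% ± 0.183 in KO and 1.22% ± 0.101 in WT (SD, n = 6 each). In both groups of names every KO library lay above every WT library. For 3-base units the means were 1.46% ± 0.124 in KO and 1.33% ± 0.0723 in WT, and for low-complexity tracts 2.29% ± 0.199 in KO and 2.01% ± 0.131 in WT, and there the genotypes overlapped. Simple repeats with 4 or 5 base units stood at 2.51% ± 0.222 in KO and 1.93% ± 0.133 in WT. They too did not overlap, at 2.23% to 2.81% in KO and 1.69% to 2.06% in WT. The same held for SINE elements, at 16.8% to 23.1% in KO and 12.4% to 15.0% in WT. The shares of simple repeats with longer units and of LINE elements overlapped. The LTR share, which is part of the same total, was 44.2% to 51.7% in the KO libraries and 54.1% to 59.6% in the WT libraries. The part of the LTR share in the other shares was not tested.

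Shares within the 86 names use a total without the other repeats, though reads may have been shared with names outside the 86. Within the counts of the 86, 1-base units took 12.2% to 12.7% in KO and 11.3% to 11.8% in WT. The 3-base units took 23.0% to 24.3% in KO and 24.9% to 26.8% in WT. There was no overlap in either. The gap in the 3-base units rested on 1 name. Without _ATT_n they took 17.6% ± 1.34 in KO and 17.7% ± 1.78 in WT. The 2-base units took 26.2% ± 1.91 in KO and 23.6% ± 1.44 in WT, and low-complexity tracts 37.5% ± 2.15 in KO and 39.1% ± 1.45 in WT, with overlap in both. These shares are sums over the chosen names and are given without a test.

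Of the 86 names, 84 passed the filter on low counts and were tested. The names _CC_n and _CCC_n did not, with 0 to 20 counts per library. None of the 84 passed an adjusted p under 0.05 in edgeR, where 1.42% of all 3312 repeats did, 0.151% higher and 1.27% lower in KO. Before adjustment, p was under 0.05 for 4 members higher and 4 lower in KO, 4.76% each, against 5.5% of all repeats higher and 7.91% lower. DESeq2 called 2 of the 82 members to which it gave an adjusted p, _ATA_n and _TTA_n, both higher in KO. Of the 2155 repeats to which it gave an adjusted p, it called 1.86% higher and 5.8% lower.

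The median log2 fold change of the 84 was -0.06, with 31 above 0 and 53 below. For comparison, the median was 0.09 over 538 tested names with units of 4 or 5 bases and -0.02 over 1467 with longer units. The fits were narrow for many members: in 52 of 84 the 95% interval of the log2 fold change lay between -0.5 and 0.5, and in 77 between -1 and 1. Scaling by total counts moved the median over all repeats to 0.32. Under that scaling 22 of the 84 members were called higher and 0 lower (edgeR), where 10.8% of all repeats were called higher and 0.996% lower, and 81 of the 84 had a positive log2 fold change. For members below 0 after TMM adjustment the direction thus depended on the scaling, except in the 3 names _ATT_n, _AGC_n and _GCT_n, which stayed below 0.

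**Figure D2:**
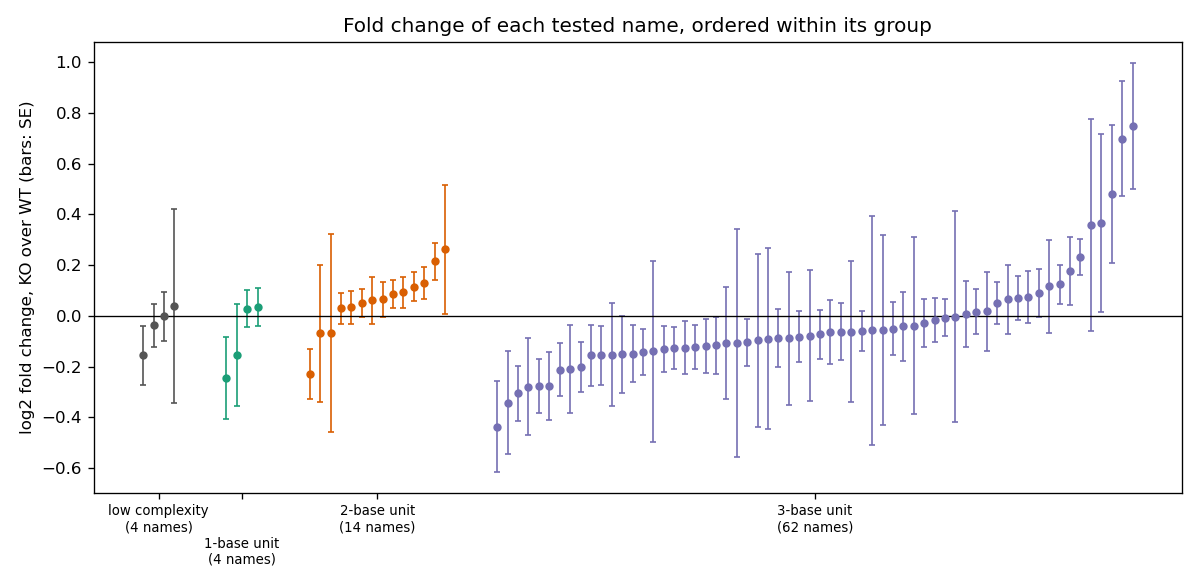
Log2 fold change of each tested name (vertical axis, KO over WT, with SE), ordered by size within low-complexity names and names with 1, 2 or 3 base units. Of the 14 names with a 2-base unit 11 lie above 0, and of the 62 with a 3-base unit 45 lie below 0, while total-count scaling put 81 of all 84 above 0. None passed an adjusted p under 0.05 as plotted.

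Low-complexity tracts were the largest group by counts, and A-rich was the most abundant member. A-rich had a lowest, median and highest level of 12375, 15624 and 20038 normalised CPM over the KO libraries, against 14986, 18267 and 21190 over the WT libraries. The genotypes overlapped, and its log2 fold change was -0.16 (SE 0.12, edgeR adjusted p = 0.634). GA-rich had 3686, 3956 and 5371 normalised CPM in KO and 3605, 4210 and 4702 in WT, with a log2 fold change that rounds to 0 (-0.00233, SE 0.10, edgeR adjusted p = 0.994). The high KO value was that of replicate 5. G-rich averaged 510 ± 47.0 normalised CPM in KO and 524 ± 55.5 in WT (SD, n = 6 each), at a log2 fold change of -0.04 (SE 0.09, edgeR adjusted p = 0.920). The name polypurine was rare, at 3.42 ± 1.08 normalised CPM in KO and 3.33 ± 1.69 in WT (SD, n = 6 each). All 4 names are of purine-rich sequence, and the files held no row for the pyrimidine-rich complement.

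Single-base runs were almost wholly of A and T, and their levels after TMM adjustment did not separate the genotypes. The name _T_n had a lowest, median and highest level of 3859, 4341 and 4797 normalised CPM in KO, against 3792, 4255 and 4851 in WT. The name _A_n had 2099, 2442 and 2567 normalised CPM in KO, against 2035, 2327 and 2651 in WT. The log2 fold changes were 0.03 (SE 0.07) for _T_n and 0.04 (SE 0.07) for _A_n, with edgeR adjusted p of 0.936 and 0.913. Under total-count scaling they were 0.34 and 0.35, and both names were called higher (edgeR adjusted p = 0.00776 each), as were 10.8% of all repeats. In both names KO replicate 6 was the lowest and KO replicate 3 the highest KO library, and WT replicate 4 the lowest and WT replicate 2 the highest WT library. Runs of C and G were far rarer, with _C_n at 19.1 ± 3.15 normalised CPM in KO and 22.6 ± 4.30 in WT, and _G_n at 10.2 ± 2.54 in KO and 11.4 ± 2.12 in WT (SD, n = 6 each). Their edgeR adjusted p were 0.563 and 0.837.

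The names _AA_n and _AAA_n, also runs of A, kept a fixed proportion to each other. Both were rare, with 126 counts of _AA_n and 253 of _AAA_n over all 12 libraries. In 11 of the 12 libraries _AAA_n had exactly 2 times the count of _AA_n, and in the remaining library it was 1 count off. The chi-square of a constant proportion over the 12 libraries was 9.4e-04 per degree of freedom, where counts drawn independently give about 1. These were also the only tested members whose spread among libraries was below counting error in both genotypes. Whether reads were divided among such names in the counting has no statement in the labels. For _A_n against _T_n the same chi-square per degree of freedom was 13.6.

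Alternating runs of CA and TG, among the commonest tandem repeats of mammalian genomes, were steady from library to library. The 4 names of this class, _AC_n, _CA_n, _GT_n and _TG_n, together took 0.988% ± 0.131 of all counts in KO and 0.750% ± 0.0717 in WT (SD, n = 6 each). The name _TG_n had a lowest, median and highest level of 2770, 2860 and 2937 normalised CPM in KO, against 2529, 2680 and 2865 in WT, which overlapped. Its coefficient of variation was 2.11% in KO and 4.45% in WT, the lowest in KO of all 84. The name _CA_n averaged 2218 ± 129 normalised CPM in KO and 2172 ± 97.4 in WT (SD, n = 6 each), a log2 fold change of 0.03 with a 95% interval from -0.10 to 0.16 (edgeR adjusted p = 0.910). The other phase of that strand, _AC_n, had a log2 fold change of 0.13 (SE 0.06, edgeR adjusted p = 0.392).

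Among runs of GA and TC, _GA_n stood out by its unadjusted p. It had a lowest, median and highest level of 705, 748 and 887 normalised CPM in KO, against 649, 662 and 715 in WT. The genotypes overlapped, and KO replicates 5 and 6 were the highest at 867 and 887. The log2 fold change was 0.21 (SE 0.07, unadjusted p = 0.0107, edgeR adjusted p = 0.167). Its complement _TC_n averaged 1439 ± 41.3 in KO and 1390 ± 53.9 in WT (SD, n = 6 each), which is 0.05 on the log2 scale (SE 0.05, edgeR adjusted p = 0.779). Over the 10 names of 2-base units other than _AA_n, _TT_n, _CC_n and the CpG units, all 10 log2 fold changes were above 0, from 0.03 to 0.21 with a median of 0.08, and none was called. With total-count scaling the median of these 10 was 0.38, against 0.32 over all repeats. All 10 were then called higher, as were 10.8% of all repeats. The run _TT_n stood apart from these 10 names, at -0.23 after TMM adjustment (SE 0.10, edgeR adjusted p = 0.309).

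In the class of AAT and ATT, the 6 names had log2 fold changes from -0.44 to 0.70. The name _ATT_n was the most abundant 3-base name, with a lowest, median and highest level of 2775, 3218 and 4928 normalised CPM in KO, against 3384, 4639 and 6974 in WT. WT replicate 2 held the highest value of all libraries, and KO replicate 3 was the only KO library above the WT median. The log2 fold change was -0.44 (SE 0.18, unadjusted p = 0.0277, edgeR adjusted p = 0.279), and it lay between -0.57 and -0.29 when single libraries were left out. The other phases of the same strand, _TTA_n and _TAT_n, were at 142 ± 5.83 and 78.7 ± 7.08 normalised CPM in KO and at 121 ± 7.77 and 75.0 ± 5.29 in WT (SD, n = 6 each).

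The name _TTA_n had the smallest p of all members. Its lowest, median and highest level was 138, 140 and 154 normalised CPM in KO, against 111, 125 and 128 in WT, and every KO library lay above every WT library. The log2 fold change was 0.23 (SE 0.07, edgeR adjusted p = 0.115, DESeq2 adjusted p = 0.0448). Only 1 other member was separated in this way, _ACT_n, at 7.50 ± 2.15 normalised CPM in KO and 4.43 ± 1.05 in WT (SD, n = 6 each). Its log2 fold change of 0.75 was the largest of the 84 (SE 0.25, edgeR adjusted p = 0.162). Of the 6 names of its class, ACT and AGT, 5 were above 0, with a median of 0.36 and a median SE of 0.26, and none was called. The most abundant name of this class, _TAG_n, had a log2 fold change of 0.18 (SE 0.13, edgeR adjusted p = 0.634). The separated names are 2 of 84 members, 2.38%, where 0.725% of all tested repeats had every KO library above every WT library. No member had every KO library below every WT library, where 1.39% of all repeats did.

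The name _ATA_n had a lowest, median and highest level of 57.1, 110 and 177 normalised CPM in KO, against 56.7, 68.1 and 84.0 in WT. The KO libraries were spread over a wider range, with replicates 1 and 4 at 177 and 150 and replicate 5 close to the lowest WT library. The log2 fold change was 0.70 (SE 0.23, edgeR adjusted p = 0.148, DESeq2 adjusted p = 0.0318). Leaving out single libraries gave values between 0.53 and 0.84, with edgeR adjusted p between 0.0584 and 0.302.

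In 3 classes of 3-base units all 6 names had log2 fold changes below 0. The medians were -0.18 for AGC/CTG, -0.12 for AGG/CCT and -0.08 for CCG/CGG, and no name was called. The median SE was 0.16 for AGC/CTG, 0.11 for AGG/CCT and 0.35 for CCG/CGG. All 6 names of the AGC and CTG class, the repeat known from coding polyglutamine tracts, lay between -0.34 and -0.12. The name _AGC_n had a lowest, median and highest level of 226, 247 and 271 normalised CPM in KO, against 228, 303 and 400 in WT. WT replicate 2 lay within the KO range and WT replicate 1 far above it, and the log2 fold change was -0.31 (SE 0.11, unadjusted p = 0.0137, edgeR adjusted p = 0.186). Its complement phase _CTG_n averaged 243 ± 12.3 in KO and 264 ± 34.0 in WT (SD, n = 6 each, edgeR adjusted p = 0.595). Of the 6 names of the ATC and ATG class 5 were below 0, with _TGA_n at -0.28 (SE 0.11, unadjusted p = 0.0198, edgeR adjusted p = 0.233). Under total-count scaling the medians were 0.13 for AGC/CTG, 0.19 for AGG/CCT, 0.22 for CCG/CGG and 0.13 for ATC/ATG, so the sign of all 4 medians turned.

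Base composition went with the sign of the fold change among 3-base units, as a description without a test. Units with no G or C had 4 of 8 log2 fold changes above 0 and a median of 0.03, and units with 1 had 11 of 24 and a median of -0.03. Units with 2 G or C had 2 of 24 above 0 and a median of -0.11, and units of G and C only had 0 of 6 and a median of -0.08. The units of G and C only had a median SE of 0.35. When single libraries were left out, _GGC_n ranged from -0.23 to 0.20 and _GCC_n from -0.25 to 0.20. The names of a class share a sequence and may share reads, so they are not independent. Under total-count scaling the medians became 0.33, 0.28, 0.20 and 0.22.

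The spread among libraries of 1 genotype was wider for units with a CpG step than for most others. The coefficient of variation over 6 libraries had a median of 32.4% in KO and 51.2% in WT over the 14 units with CpG, and of 11.9% in KO and 11.9% in WT over the 66 tested units without. Some rare units without CpG were as variable, with a median of 29.3% in KO and 26.9% in WT over the 6 names of ACT/AGT. Among them _AGT_n had the highest coefficient of variation of the 84 in KO, 59.6%. The name _GGC_n, the most abundant of the units with CpG, had a lowest, median and highest level of 61.3, 95.1 and 144 normalised CPM in KO, against 26.7, 111 and 184 in WT. Counting error alone would give it a coefficient of variation of 2.47% in KO and 2.59% in WT, against 31.8% measured in KO and 53.2% in WT.

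The 6 names of the CCG and CGG class moved together. Each was highest in WT replicate 1 and lowest in WT replicate 2 among the WT libraries, and each was lowest in KO replicate 5 among the KO libraries. Their summed level was 240 to 549 normalised CPM in KO and 114 to 722 in WT. The mean was 392 ± 126 in KO and 414 ± 213 in WT (SD, n = 6 each), and 474 in WT without replicate 2. The log2 fold change of _GGC_n was -0.04 (SE 0.35), with a 95% interval from -0.79 to 0.71, and it ranged from -0.23 to 0.20 when single libraries were left out.

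**Figure D3:**
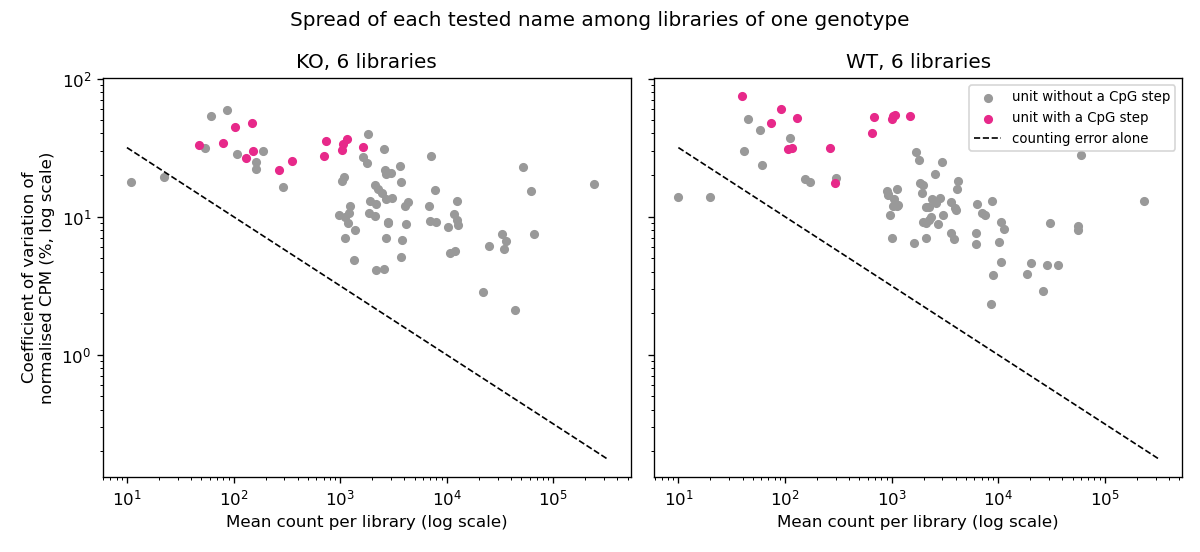
Coefficient of variation of normalised CPM among 6 libraries (%, log scale, vertical axis) against mean count per library (log scale, horizontal axis) for each tested name, KO left and WT right, with units that hold a CpG step in pink and the counting error as a dashed line. Medians over CpG units are 32.4% in KO and 51.2% in WT, and the 2 points below the line are _AA_n and _AAA_n.

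Each unit was then compared with its reverse complement within the same library, a ratio that needs no scaling. Names were grouped over phases, so that the class AC/GT set _AC_n and _CA_n against _GT_n and _TG_n. In all, 15 classes had at least 10 counts on each strand in every library. The units AT and CG are their own complement, and _CC_n and _CCC_n had no complement among the rows. The labels do not say whether the counting used the strand of the reads, nor in which orientation a tract was named, so a ratio compares 2 names and not 2 RNA strands. The number and length of the tracts under each name were not known either. A departure from equality therefore describes names in the annotation.

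Summed over phases, only 1 of the 15 classes, AAC/GTT, did not differ from an equal count of both units. Its mean log2 ratio was 0.02 ± 0.10 (SD, n = 12, exact sign-flip test, two-sided, adjusted p = 0.516). Its single phases were not equal and pointed in opposite ways. The mean log2 ratio was 1.56 for _AAC_n to _GTT_n, -1.67 for _CAA_n to _TTG_n and -0.91 for _ACA_n to _TGT_n. In the other 14 classes the mean ratio departed from 0 (exact sign-flip adjusted p up to 0.0162). In 12 of these 14 all 12 libraries had the same sign, with an exact sign-flip p of 4.88e-04, the smallest that 12 libraries can give. The ratio of AC/GT was the smallest of the 14, with a mean log2 value of -0.04 ± 0.05 (SD, n = 12, exact sign-flip adjusted p = 0.0162). Without KO replicate 5 and WT replicate 2 the strand ratio of AC/GT no longer passed (exact sign-flip adjusted p = 0.0586, n = 10). The names of AGC/CTG differed by a mean log2 ratio of 0.11 ± 0.09 (SD, n = 12, exact sign-flip adjusted p = 0.00338).

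Units made of purines alone always had fewer counts than their pyrimidine complement. This held in 6 of 6 such classes and in all 12 libraries of each, though A/T and AAA/TTT both set runs of A against runs of T. The counts of _T_n were 1.83 times those of _A_n, with a mean log2 ratio of A to T of -0.87 ± 0.04 (SD, n = 12). CT units had 1.58 times the counts of AG units, CTT units 2.71 times those of AAG units, CCT units 3.61 times those of AGG units, and C runs 1.93 times those of G runs. The ratio of _TTT_n to _AAA_n was 54.3, and rests on the low counts of _AAA_n described above. Of the 8 mixed classes whose complements hold unequal numbers of pyrimidines, the pyrimidine-richer name was higher in 2. The low-complexity rows are named only for purine-rich sequence and are not in these ratios.

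The widest ratio among mixed classes was that of AAT/ATT, with a mean log2 value of -3.21 ± 0.40 (SD, n = 12), or 9.23 times more counts on the ATT side, followed by ACT/AGT with 6.38 times more on the AGT side. Both were carried by 1 phase, _ATT_n with 671687 counts over all libraries against 46514 for _AAT_n, and _TAG_n with 28254 against 1990 for _CTA_n. Phases of 1 unit could point in opposite ways: _AC_n had more counts than _GT_n by a log2 ratio of 0.37, and _CA_n fewer than _TG_n by -0.34. When only the most abundant name of each strand was used, the strand ratio of ATC/ATG was 0.03 in place of -0.29. The strand ratio of AAC/GTT then departed from equality at 0.32, and the strand ratio of ACC/GGT at 0.12 no longer did. In these classes that setting compared different phases and not exact complements: _TCA_n with _GAT_n, _AAC_n with _TTG_n, and _CAC_n with _TGG_n.

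**Figure D4:**
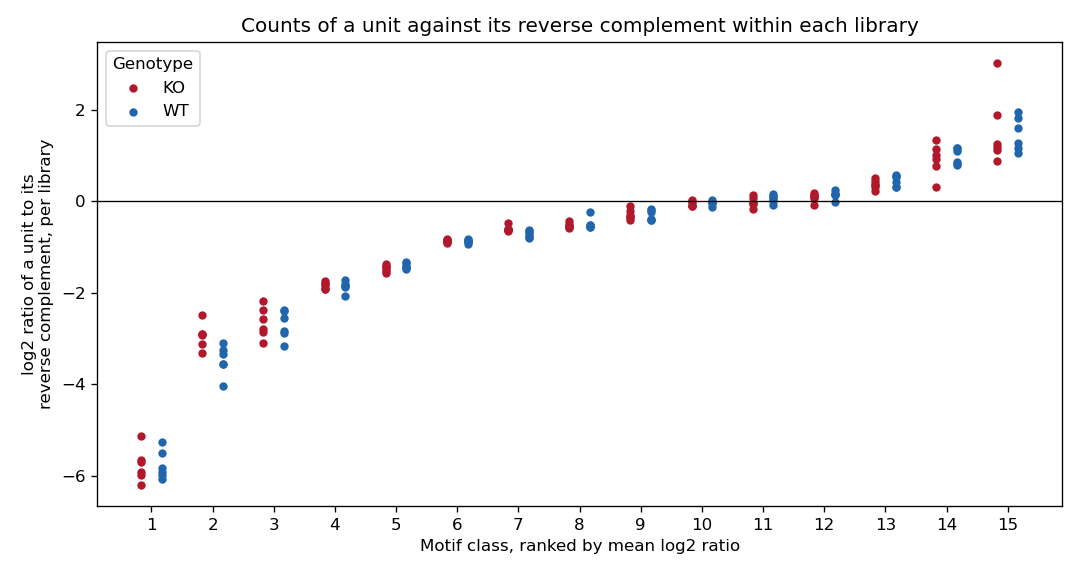
Log2 ratio of the counts of a unit to those of its reverse complement (vertical axis) in each library, KO beside WT, for 15 motif classes ranked by their mean. By the unit named first, the AAA class is lowest, the AAT class next, then the ACT class, the AGG class, the AAG class, the single-base A class, the AG class, the CCG class, the ATC class, the AC class, the AAC class, the AGC class, the ACC class and the single-base C class, and the ACG class is highest. Points of both genotypes overlap in every class.

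No class had a ratio that differed between the genotypes after correction. Before adjustment, p was under 0.05 in 2 of 15, AAT/ATT and AG/CT. For AAT/ATT the mean log2 ratio was -2.94 ± 0.28 in KO and -3.47 ± 0.33 in WT (SD, n = 6 each, two-sided exact permutation test of the library labels, p = 0.0130, adjusted p = 0.0974). For AG/CT it was -0.60 ± 0.07 in KO and -0.72 ± 0.07 in WT (SD, n = 6 each, exact permutation p = 0.0108, adjusted p = 0.0974). The difference in AG/CT was 0.12. Of the 2 KO libraries with the highest _GA_n level given above, replicate 6 had a ratio of -0.47. Replicate 5, at -0.60, lay close to the other KO libraries. For A/T the genotypes were at -0.87 ± 0.04 in KO and -0.88 ± 0.04 in WT (SD, n = 6 each, exact permutation p = 0.660, adjusted p = 0.960).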

How the data were processed

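Total RNA of 12 libraries was analysed. Per the labels, each library has a table of the authors' estimated counts, 1 row for each repeat name. All values were whole, so rounding changed nothing. The submitters' processing notes name mm10, Trimmomatic 0.32 and edgeR without a role. For the aligner, the counter, the repeat annotation and the use of strand no statement was found in the sources used here. Reads that match several names may have been shared between them, which affects short units most.

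Members, lists and tests were chosen with earlier results of these data known. Groups came from the sample titles. The test across repeats was that of edgeR 4.0.16, run in R 4.3.3 (filterByExpr, TMM, quasi-likelihood F test, genotype only, Benjamini-Hochberg over all tested repeats, threshold 0.05), after a test on simulated data. Normalised CPM used library sizes times TMM factors. Strand ratios used a pseudocount of 0.5, exact permutation and sign-flip tests (numpy 2.4.6), adjusted over 15 classes. Named were every 1-base and low-complexity name, the most abundant name of each strand of each class, and the 5 smallest p in each direction. Other names were chosen after their values were seen. Alternatives were other scalings and filters, DESeq2 1.42.0, a replicate block and left-out libraries.

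No 2 libraries of a group agreed within sampling noise over all repeats (chi-square per degree of freedom of 25.0 or more in 30 pairs). Counting errors cover counting alone, since the reads carry no molecular identifiers.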

Additional observations from a re-analysis of the deposited data

Results flagged for a closer look

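Among 116 sets of 6 libraries (the named members' levels and the strand ratios, each in KO and in WT), 6 had 1 library far from the other 5 by Dixon's criterion. That is 5.17%, close to the 1 in 20 that chance gives. The name _TCT_n stood at 757 normalised CPM in KO replicate 5, against 409 to 485 in the other KO libraries. The name _TTA_n stood at 154 in KO replicate 2, against 138 to 142 in the others. The name _TTG_n stood at 838 in WT replicate 2, against 593 to 664 in the others, and _TGG_n at 140 in WT replicate 4, against 169 to 185. The log2 ratio of AG/CT was -0.47 in KO replicate 6, against -0.66 to -0.60 in the others. The log2 ratio of CCG/CGG was -0.24 in WT replicate 2, the library with the lowest CCG counts, against -0.57 to -0.51 in the others.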

How the results depend on the processing

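The count of called members was 0 in edgeR. It stayed at 0 with RLE scaling, with both other filters and without each single library (0 to 0). It also stayed at 0 without KO replicate 5 and WT replicate 2 together and with the replicate block. Whether equal replicate numbers pair the samples is not given in the sample titles. Correlations of same-numbered deviations ran from -0.07 to 0.15, which cannot settle it. The count was 22 under total-count scaling, all higher in KO, where 10.8% of all repeats were called higher and 0.996% lower. With DESeq2 it was 2, both higher in KO. Of all repeats to which DESeq2 gave an adjusted p, 1.86% were called higher and 5.8% lower. The cause of the DESeq2 calls was not tested. Total-count scaling moved the median over all repeats to 0.32, against 0.01, and among the named members it turned the sign of 23 uncalled values. Without a filter the median over all repeats was 0.17. The number of strand ratios that differed between the genotypes was 0 under every alternative run, also with the replicate block (0 of 15). The number that departed from equality was 13 or 14 under all alternatives run. The strand ratio of ATC/ATG was 0.0325 with the most abundant name of each strand only, against -0.29 over all names. That setting compared _TCA_n with _GAT_n, which are different phases. Between exact complements the mean log2 ratio was -0.75 for _ATC_n to _GAT_n, 0.49 for _TCA_n to _TGA_n and 1.14 for _ATG_n to _CAT_n. Depth limits the rare names: counting error alone gives polypurine a coefficient of variation of 13.6% in KO and 14.9% in WT, and _ACT_n 9.60% in KO and 12.8% in WT.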
